A study of Sus scrofa with 96 samples.

Results

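The transcripts described here are those whose median level in synovium was lowest in operated knees relative to intact control knees, 52 weeks after surgery. They were chosen by their values. Each library was scaled to its total count, as CPM (counts in every 1 M counts), and d, the log2 ratio of the median operated synovium to the median CON synovium after adding 1 CPM to each, ordered the transcripts. A transcript entered the order if it was over 300 bases long, had a CON synovium median of at least 5 CPM, and differed between CON cartilage and CON synovium by a log2 ratio of no more than 4 in either direction. Of the 46295 transcripts quantified, 16808 met these limits. The 150 with the lowest d were taken and 1 of them was set aside by name, which left 149 members. Members are cited below by their position in the order by d, from 1 (lowest) to 149. The lower level in operated synovium is thus how the members were picked and is given as a description, without a test.

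The animals were Yucatan minipigs whose anterior cruciate ligament was cut, after which they had no further procedure (ACLT), a ligament reconstruction (RECON), or a ligament repair with an extracellular matrix scaffold (REPAIR). The control knees (CON) were intact contralateral knees of 12 operated animals, 4 from each surgical group, and they had no sham operation. Total RNA depleted of ribosomal RNA was sequenced from articular cartilage and synovium of the same knees. Knee ACLT 12 is absent from the study's list of knees and was kept out of the rule and the tests, so 94 of 96 libraries remained, from 47 knees: 12 CON, 11 ACLT, 12 RECON and 12 REPAIR.

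Synovium lines the joint capsule. Its intima of macrophages and fibroblasts secretes lubricating synovial fluid, and its sublining holds fibroblasts, vessels, nerves, resident immune cells and fat in proportions that differ between sites of a knee. After a joint injury the tissue is known to thicken, to scar and to draw in immune cells. A bulk library sums all of these cells, so fewer cells of a type and less RNA per cell cannot be told apart in any value below. No table used here pairs the Ensembl transcripts with genes, so the members carry no gene names, neither tissue was checked against marker genes, and transcripts of the same gene may be among the members more than once.

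Total counts ran from 7.48 M to 19.99 M in the synovium libraries and from 9.04 M to 21.9 M in the cartilage libraries. In the mean level of the members, 4 synovium libraries lay toward the other group. CON 11 and CON 5 were low and REPAIR 7 and REPAIR 5 were high, as detailed next, so that setting them aside widens the difference between CON and operated knees by construction. By the same choice, it lowers REPAIR against ACLT and against RECON in the members. By the root mean square difference from the rest of the group over the members, CON 11 ranked 1, CON 6 ranked 2 and CON 5 ranked 3 of 12 CON libraries, REPAIR 5 and REPAIR 7 ranked 1 and 2 of 12 REPAIR libraries, and ACLT 7 ranked 1 of 11. CON 6, which was high, was kept. Over the eligible transcripts that were not members, the same measure ranked CON 11 at 2 and CON 5 at 6 of 12 CON synovium libraries, and REPAIR 5 at 1 and REPAIR 7 at 4 of 12 REPAIR libraries. Results that rest on these knees are given with and without them.

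The median d of the members was -2.03, from -5.05 to -1.50, whereas it was -0.15 over the eligible transcripts, of which 70.5% had a negative d on this CPM scale. At the edge of the choice, the last member kept had a median of 6.02 CPM in CON and 1.48 CPM in operated synovium (d = -1.50), and the next transcript outside had 9.99 and 2.92 CPM (d = -1.49). Most members were low to begin with. Their CON synovium medians ran from 5.15 to 1318 CPM with a median of 10.2 CPM. Of them, 74 were under 10 CPM and 9 were over 100 CPM. Per length, the median member had 6.54 TPM in CON synovium, compared with 14.9 TPM for the eligible transcripts, and 0.883 TPM in operated synovium. The operated median was below 1 CPM for 61 members and exactly 0 for 45, which were all the eligible transcripts with an operated median of 0 (0.268% of the eligible). Still, no member was absent from every operated synovium. In 140 members at least 1 operated library lay above the CON median, in 42 at least 1 lay above the highest CON library, and in none were all operated libraries below all CON libraries (0.0% of the eligible). The counts of 140 and 42 have no share over the eligible transcripts here. Having 35 operated and 12 CON libraries favors such overlap.

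The members were of 2 kinds. A read was found in every synovium library for 36 of the 149 (24.2%), a share that was 84.0% over the eligible transcripts. The other 113 had no read in some synovium library. The operated libraries that chose the members enter this split, so the low share with a read throughout follows in part from the choice. Put the other way, members made up 0.255% of the eligible transcripts with a read in every synovium library and 4.21% of those without. The 36 had higher CON medians, at 38.6 CPM (median over the members) compared with 8.31 CPM for the 113, and a median d of -1.89 compared with -2.19. Of the 20 members with the lowest d, 3 were among the 36.

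In the 36 members, the mean of log2(CPM + 1) was 3.48 in the lowest CON synovium, 5.59 in the median and 5.97 in the highest. In ACLT synovium it was 3.11, 3.86 and 4.21 (lowest, median and highest). In RECON it was 2.57, 3.36 and 3.65, and in REPAIR 2.97, 3.35 and 5.82. CON and operated libraries did not fall apart cleanly. CON 11 (3.48) and CON 5 (4.41) lay well under the next CON library (5.37), whereas REPAIR 7 (5.82) and REPAIR 5 (5.4) lay well over the next operated library (4.21). With those 4 knees set aside, all other CON libraries lay above all other operated libraries in this mean, a separation that the choice of members fixes. Taken singly without those knees, 6 of the 36 members and 4 of the 113 had every operated library below every CON library, compared with 0.47% of the eligible transcripts. CON 11 was the lowest CON library for 29 of the 36 members, and REPAIR 5 or REPAIR 7 was the highest operated library for 29 of the 36. In cartilage the medians of the same 36 members were 3.93 in CON, 4.03 in ACLT, 4.02 in RECON and 4.00 in REPAIR.

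**Figure D1:**
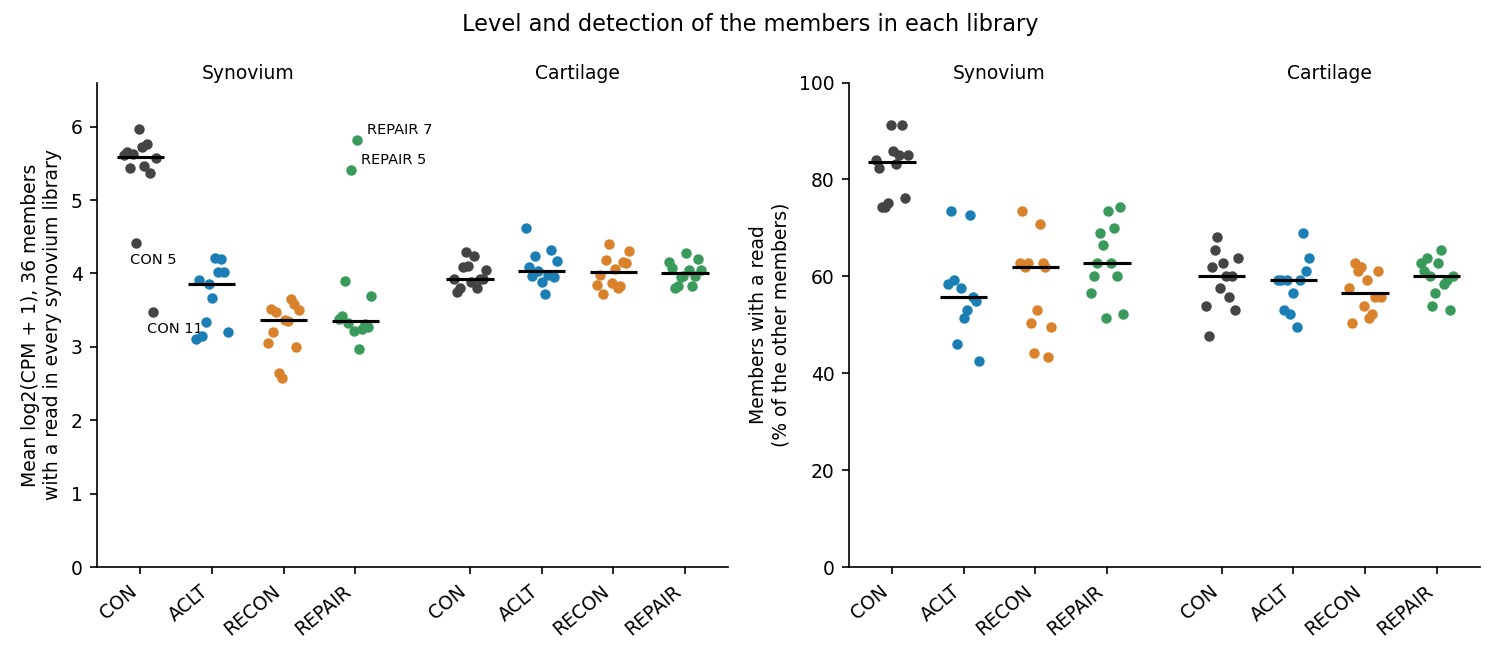
Left, the mean log2(CPM + 1) of the 36 members with a read in every synovium library, in each library by tissue and group; right, the percentage of the other 113 members with at least 1 read. Points are libraries and bars are group medians. In synovium the CON medians are 5.59 and 83.6%, above the 3 operated groups, with CON 5, CON 11, REPAIR 5 and REPAIR 7 off their groups on the left, and in cartilage the 4 groups overlap.

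The lowest d belonged to ENSSSCT00000082905.2 (position 1). It had a read in 9 of 12 CON synovia, with a lowest value of 0, a median of 32.2 CPM and a highest of 68.4 CPM. In operated synovium it had a read in 15 of 35 libraries, 5 in each treatment group, and ran from 0 to 53.5 CPM with a median of 0. The groups overlapped throughout: CON 5 had no read, and the highest library of each treatment group (46.5 CPM in ACLT, 43.1 CPM in RECON and 53.5 CPM in REPAIR) lay above the CON median. Where a read was present, the median was 47 CPM in CON and 30.3 CPM in operated synovium. This transcript was found in few cartilage libraries, with a read in 3 of 12 CON (highest 47.4 CPM) and 11 of 35 operated libraries (highest 66.2 CPM).

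The next was ENSSSCT00000024055.4 (position 2). It had a read in 8 of 12 CON synovia (0 to 75.2 CPM, median 27.4 CPM) and in 14 of 35 operated synovia (0 to 65.5 CPM, median 0). Where a read was present, the level was no lower in operated synovium, with a median of 51.8 CPM compared with 43.3 CPM in CON. The lowest such values were 14 and 16.4 CPM, so a library held either no read of it or a sizeable number. Cartilage held it more often, with a read in 10 of 12 CON libraries (median 46.1 CPM) and in 25 of 35 operated libraries (median 33.9 CPM). For both transcripts the difference in the median between CON and operated synovium was thus a difference in how many libraries held any read. How Salmon divides reads between similar transcripts bears on such values, and its part here was not tested.

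**Figure D2:**
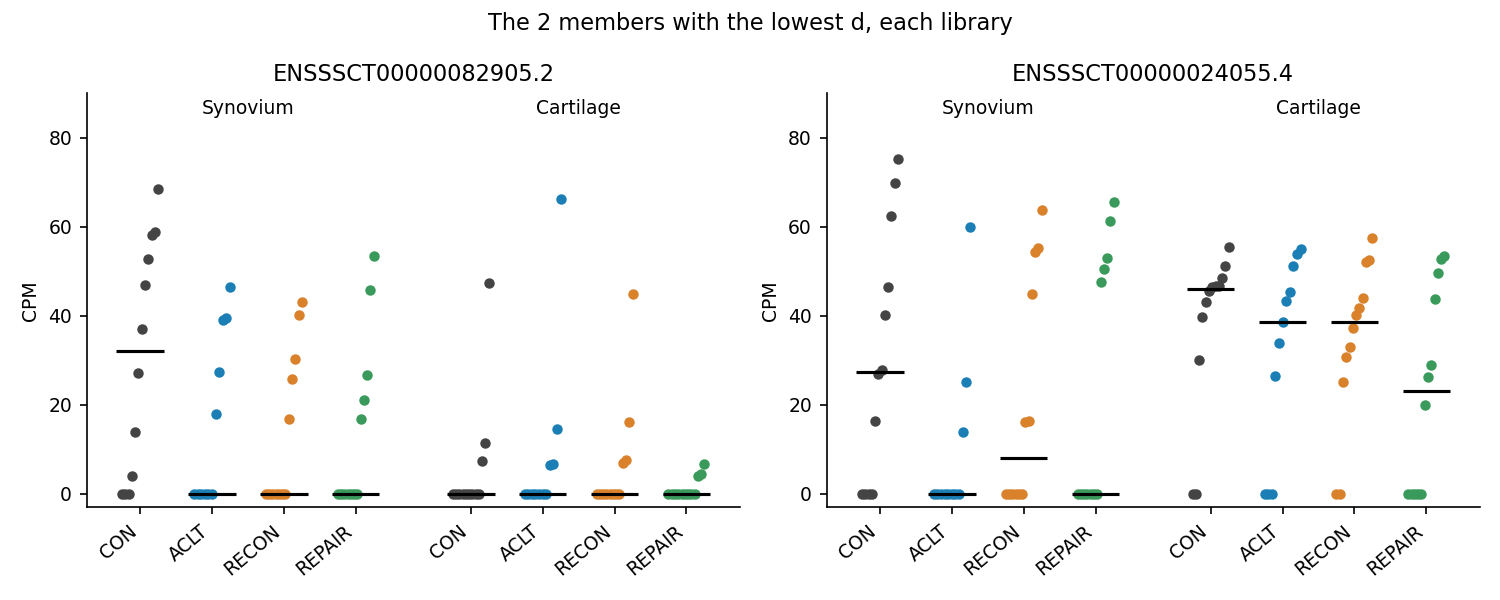
CPM of ENSSSCT00000082905.2 (left) and ENSSSCT00000024055.4 (right) in each library, by tissue and group, where points are libraries and bars are group medians. Every synovium group holds libraries at 0 and libraries over 10 CPM of both transcripts, and the median of all operated synovia is 0 for both against 32.2 and 27.4 CPM in CON.

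The 113 members were detected in fewer operated than CON synovia. In the median CON synovium 83.6% of the 113 had a read (lowest 74.3%, highest 91.2%). The percentage was 55.8% in ACLT (42.5% to 73.5%), 61.9% in RECON (43.4% to 73.5%) and 62.8% in REPAIR (51.3% to 74.3%). The lowest CON library and the highest REPAIR library were level, and the groups met only there. Member by member, the share of libraries with a read was smaller in operated than CON synovium for 112 of 113, with a median of 83.3% in CON and 54.3% in operated knees. For the other 2572 eligible transcripts without a read in some synovium library, it was smaller for 1844 (71.7%). The median difference was -23.1 percentage points over the 113 and -2.86 over those others. The members were chosen by their medians, which this share helps to set. Level where read differed too, which the choice by medians likewise favors. Among libraries with a read, the median level was lower in operated than CON synovium for 103 of the 113, with a median log2 ratio of -1.07. No matching values were computed for the other eligible transcripts, so nothing is read from that count. Median depth was 12.6 M counts in CON synovium and 10.8 M, 14.7 M and 14.6 M in ACLT, RECON and REPAIR synovium. The paper reports a lower mean RNA integrity number and a lower percentage of uniquely mapped reads in operated than CON synovium. The part of depth, RNA integrity and mapping in these shares was not tested. In cartilage the share with a read was smaller in operated knees for 50 of the 113 and larger for 47.

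**Figure D3:**
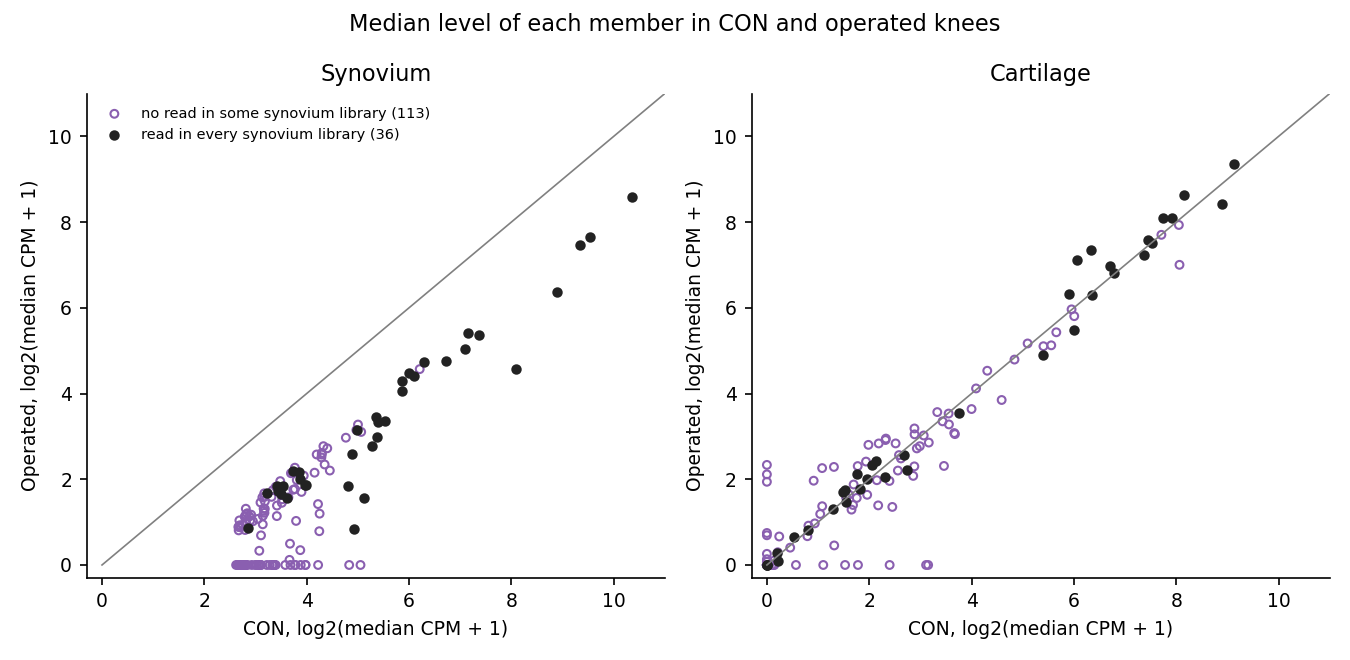
Median level of each member in operated against CON libraries, as log2(median CPM + 1), in synovium (left) and cartilage (right). Filled points are the 36 members with a read in every synovium library, open points are the other 113, and the line marks equality. All members lie under the line in synovium, by the rule, with 45 at an operated median of 0, and in cartilage they lie around it.

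Among the 36 members, the libraries that departed from their group did so for different members. A set of 7 (positions 59, 61, 68, 74, 81, 97 and 101) stood at least 1 log2 unit above the CON median in CON 6, and was picked for that after the values were seen. In these 7 the median departure from the CON median was 2.53 in CON 6 and 2.34 in REPAIR 5, and all 7 were above the CON median in REPAIR 5. ACLT 7 followed at 0.32 and REPAIR 7 at 0.20, while the rest of the operated libraries were at -1.48 or lower. In the other 29 members REPAIR 5 had a median departure of -0.45 and CON 6 of 0.01, whereas REPAIR 7 was at 0.27 and above the CON median in 19 of the 29. CON 11 was low in both sets, at -1.96 and -2.02. CON 5 was at -1.84 in the 7 and -0.91 in the 29.

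**Figure D4:**
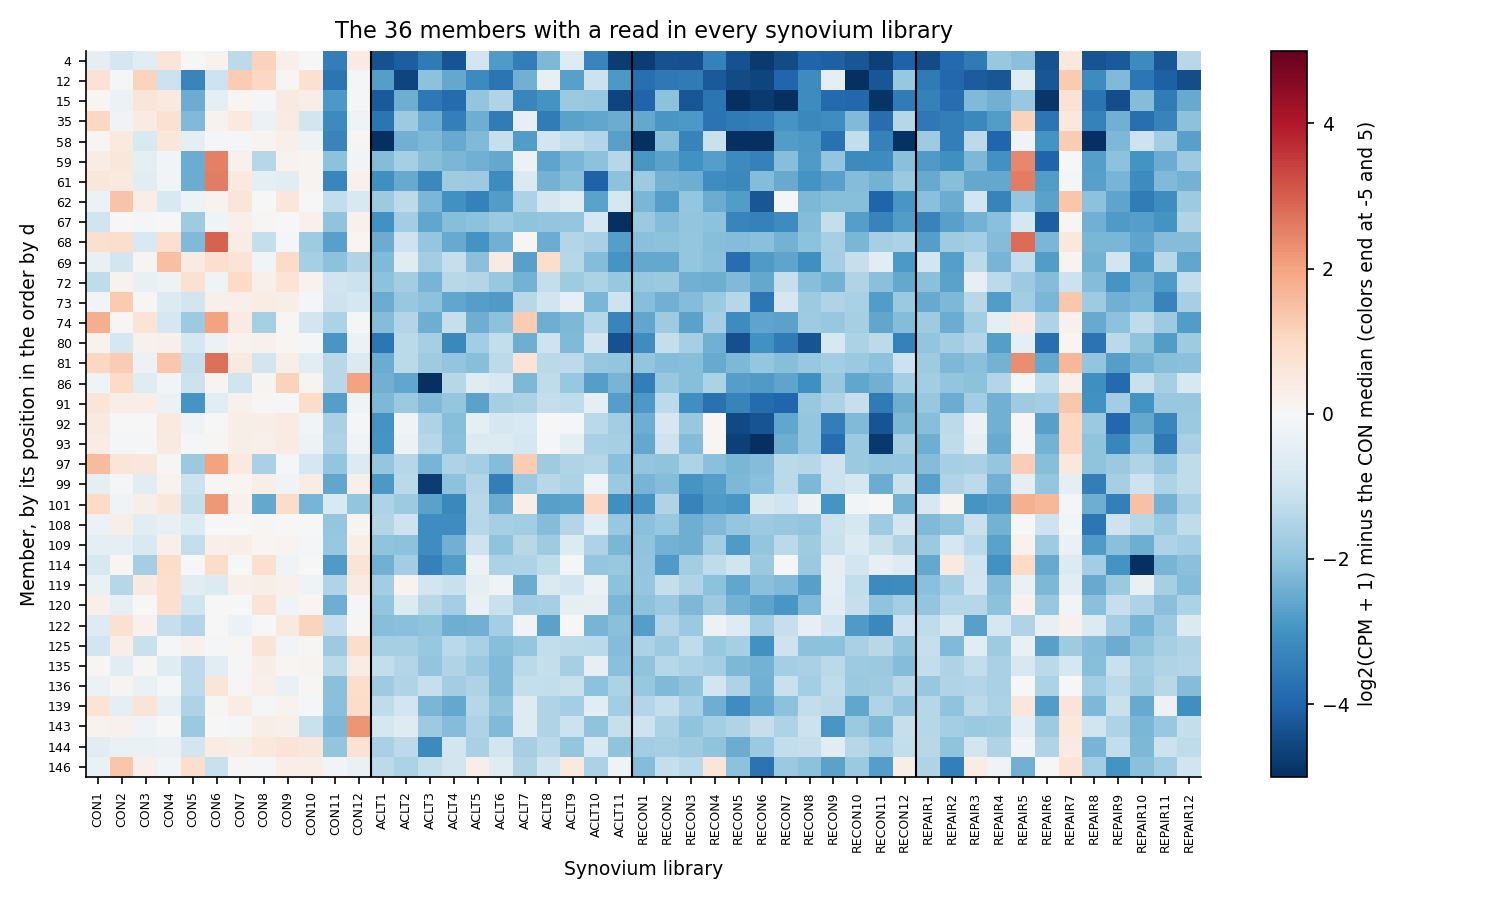
log2(CPM + 1) of the 36 members with a read in every synovium library (rows, by position in the order by d) in each of the 47 synovium libraries (columns), minus the median of the CON libraries of that member; red is above and blue below the CON median. The columns of CON 11 and CON 5 are bluer than the other CON columns, and REPAIR 7 resembles CON in most rows. REPAIR 5 and CON 6 are both red in the 7 rows picked for CON 6. In the other 29 rows REPAIR 5 is above the CON median in 7 and CON 6 in 16.

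Levels of the 36 members correlated between members, in CON synovium only with CON 5 and CON 11 included. Over the 12 CON synovia, the median Pearson correlation between pairs of the 36 was 0.52, and it was -0.04 without CON 5 and CON 11. Over the 35 operated synovia it was 0.38, and 0.19 without REPAIR 5 and REPAIR 7. The pairs share libraries and total counts, and the values are descriptions. Over the 113 the medians were 0.08 in CON and 0.05 in operated synovium. The closest pairs of all 149 members over the 47 synovia were positions 92 and 93 (r = 0.97), which are 5393 and 5433 bases long, and positions 8 and 36 (r = 0.96), which are 1516 and 1517 bases long. Nearly as close were positions 14 and 26 (r = 0.96, 3870 and 1344 bases) and positions 16 and 26 (r = 0.96, 1641 and 1344 bases). A near-equal length was thus not common to the closest pairs. Whether any of these pairs come from the same gene or share reads was not tested.

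All 3 treatment groups lay below CON. The median over the members of log2 of the group median against the CON median was -2.0 for ACLT, -2.21 for RECON and -1.80 for REPAIR, and it was negative for 147, 146 and 147 members. These 3 comparisons share the CON libraries. The fit across all transcripts gave the same picture on a scale that centers the typical transcript near 0. There, the median fitted log2 difference over the members was -1.44 for operated against CON synovium (0.0012 over the eligible), and 67 of the 149 passed an adjusted p-value under 0.05 as lower (9.24% of the 30447 transcripts tested), none as higher. Because the rule used these libraries, nothing is read from that count. With the animal as a block the median was -2.01, and 42 of the 139 members kept passed as lower (5.87% of the transcripts in that fit). By treatment the fitted medians were -1.39 in ACLT with 40 members lower (3.94% of those tested), -1.68 in RECON with 62 (8.06%) and -1.12 in REPAIR with 25 (3.42%). Without CON 5, CON 11, REPAIR 5 and REPAIR 7, REPAIR came to -1.58 with 57 members lower (7.43% of the transcripts in that fit).

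The knees of the same animal were compared for the 12 animals with a CON and an operated knee. The rule used all of these synovium libraries, so the choice of members favors a lower operated synovium here, and the values are a description. In synovium the mean of the 36 members was lower in the operated knee in 11 of 12 animals, with a median difference of -1.94 on the log2 scale and a range from -2.98 to 0.06. The 3 animals with the smallest differences were those of REPAIR 7 (0.06), CON 11 with REPAIR 1 (-0.09) and REPAIR 5 (-0.16). Without the animals of CON 5, CON 11, REPAIR 5 and REPAIR 7, 8 animals remained, with differences from -2.98 to -1.41. Setting these knees aside favors larger differences. In cartilage of the same 12 animals the operated knee was lower in 5, with a median difference of 0.10 and a range from -0.24 to 0.82.

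The synovium of ACLT 12, a library that the rule did not use, stands as 1 further operated knee. The CON medians it is set against were used by the rule. A choice of low d favors high CON medians, so the values below follow in part from the choice, unlike those of the eligible. Its median log2 ratio to the CON median was -2.31 over the members and -0.39 over the eligible transcripts. It lay below the CON median for 124 of the 149 (83.2%, compared with 72.7% of the eligible) and for 34 of the 36 with a read in every library. It had no read of 58 members and lay above every CON library for 4. Its cartilage had a median log2 ratio of 0 to CON cartilage. With 1 library there was no test.

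The balance of the members between the tissues is a description, since the rule used the CON synovium level in its bounds and in d, and a choice of low d favors high CON synovium values. The log2 ratio of CON cartilage to CON synovium, from mean CPM + 1, was under -1 for 97 members (65.1%, compared with 25.1% of the eligible), between -1 and 1 for 39, and over 1 for 13. By medians, 125 members (83.9%, compared with 82.4% of the eligible) were higher in CON synovium than CON cartilage. In operated knees 54 (36.2%, compared with 77.1% of the eligible) were higher in synovium, 74 were higher in cartilage and 21 had equal medians. For 51 members (34.2%, compared with 8.35% of the eligible) synovium was the higher tissue in CON and the lower in operated knees, which the choice of members for a low operated synovium median favors. Transcript length, which the rule used only as a floor, had a median of 4152 bases over the members (quartiles 2732 and 5960) and 3503 bases over the eligible (2256 and 5155).

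By level per length, the member at position 109 led. Its median was 1092 TPM in CON synovium and 338 TPM in operated synovium, and 144 and 136 TPM in CON and operated cartilage. In CPM it ran from 349 through a median of 1318 to 1663 in CON synovium and from 151 through 381 to 1469 in operated synovium, with CON 11 lowest in CON and REPAIR 5 highest among the operated. Next came the member at position 58 with 686 TPM in CON and 118 TPM in operated synovium, against 739 and 573 TPM in CON and operated cartilage. It ran from 46.9 through 476 to 699 CPM in CON synovium and from 5.07 through 81.9 to 1156 CPM in operated synovium, where REPAIR 7 was highest and REPAIR 5 followed at 424 CPM. Apart from CON 11, every CON library of it lay above every operated library other than those of REPAIR 5 and REPAIR 7. Both members were singled out after their values were seen.

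Operated cartilage was not used by the rule, and the members were tested there for the difference from CON cartilage. Most members gave differences around 0, and 3 were lower in operated cartilage. The median fitted log2 difference was 0 over the members, compared with 0.0091 over all transcripts tested, with 72 members negative and 74 positive. Of the 149, 3 passed an adjusted p-value under 0.05 by edgeR (quasi-likelihood F test, p-values adjusted over 30447 transcripts after Benjamini and Hochberg), all 3 lower, where 0.975% of all transcripts passed in either direction and 0.348% as lower. None passed as higher. At an unadjusted p-value under 0.05 there were 10 members (6.71%), compared with 9.74% of all transcripts.

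The 3 were singled out after their values were seen, and each call depended on single libraries or on the fit. The member at position 82 had a read in only 2 of 12 CON cartilages, at 10.6 CPM in CON 1 and 2.60 CPM in CON 8, and in 4 of 35 operated cartilages, with a highest value of 3.53 CPM. Its fitted log2 difference was -5.08 (SE 1.07, edgeR adjusted p = 0.0058), and it no longer passed without CON 1. For the member at position 85 the level ranged from 1.10 to 9733 CPM over CON cartilage with a median of 267 CPM, and from 1.70 to 2415 CPM over operated cartilage with a median of 127 CPM. The groups overlapped over most of that range. Its difference was -3.32 (SE 0.86, edgeR adjusted p = 0.032), and it did not pass without CON 2, CON 7 or CON 9. The same transcript reached 9456 CPM in the synovium of CON 6 and 535 CPM in that of REPAIR 7, against CON and operated medians of 7.26 and 1.11 CPM. The limit on the tissue ratio used means, and CON 6 set most of its CON synovium mean of 797 CPM, with the next CON synovium at 33.2 CPM. Against a CON cartilage mean of 2615 CPM, it met that limit only with CON 6 included. At position 66, the member ran from 0 through 1.49 to 17.0 CPM in CON cartilage and from 0 through 0.371 to 3.96 CPM in operated cartilage. Its difference was -2.31 (SE 0.62, edgeR adjusted p = 0.043), and it passed in 29 of 47 fits that left out 1 knee. In a fit of cartilage alone, in which position 82 was not kept by the filter on low counts, position 85 passed (edgeR adjusted p = 0.042) and position 66 did not (0.084). With RIN, the RNA integrity number, as a covariate of that fit neither passed (edgeR adjusted p = 0.064 and 0.13). With the animal as a block, in the 12 animals with a CON and an operated knee, no member passed of the 92 kept, and the edgeR adjusted p was 0.96 for position 85 and 0.44 for position 66.

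At the other end, the highest fitted value in cartilage belonged to ENSSSCT00000042345.3 (position 96), which was listed without a read in any CON cartilage and had a read in 4 of 35 operated ones, at up to 2.17 CPM. No fold is given for it. ENSSSCT00000012867.5 (position 119) followed. It was near 0 in cartilage, with a read in 1 of 12 CON and 12 of 35 operated libraries and a highest value of 0.477 CPM, and its fitted log2 difference was 2.12 (SE 0.69, edgeR adjusted p = 0.12). In synovium, by contrast, it had a read in every library, from 2.8 through 9.90 to 18.3 CPM in CON and from 0.199 through 2.31 to 11.14 CPM in operated knees. No member passed the threshold in any of the 3 comparisons between treatments in cartilage, where 11, 9 and 11 members had an unadjusted p-value under 0.05 for RECON against ACLT, REPAIR against ACLT and REPAIR against RECON, and DESeq2 called 1, 3 and 2 members (0.562%, 0.407% and 0.782% of all transcripts by DESeq2). Over all transcripts, 0.0657%, 0.0493% and 0.0854% passed by edgeR in these comparisons, and 4.82%, 5.9% and 7.77% had an unadjusted p-value under 0.05.

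The rule pooled the operated synovia, so it did not use the differences between treatments, and these were tested. For 4 members REPAIR was higher than RECON, and each of these calls was lost without REPAIR 5 or without REPAIR 7. The median fitted log2 difference of REPAIR from RECON was 0.53 over the members and 0.012 over all transcripts, with 119 of 149 positive. Of the members, 4 were higher in REPAIR by edgeR with Benjamini-Hochberg adjusted p-values (0.0591% of all transcripts passed as higher) and none lower, and 32 had an unadjusted p-value under 0.05 (6.08% of all transcripts). Without CON 5, CON 11, REPAIR 5 and REPAIR 7 the median was 0.07 with 84 positive, no member passed by edgeR, and 9 had an unadjusted p-value under 0.05. REPAIR 5 and REPAIR 7 were set aside for their high levels of the members, so a lower REPAIR follows by construction. That fit is thus a description of how much rests on these knees. In a fit of synovium alone, and in that fit with RIN as a covariate, no member passed for REPAIR against RECON or against ACLT, while DESeq2 called 9 as higher for REPAIR against RECON (0.279% of all transcripts).

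REPAIR 7 or REPAIR 5 held the highest REPAIR value of each of the 4 members. The member at position 8 had a read in 11 of 12 CON synovia (0 to 55.0 CPM, median 12.7 CPM). It had a read in 2 of 11 ACLT, 2 of 12 RECON and 3 of 12 REPAIR synovia. REPAIR 7 had 23.6 CPM and REPAIR 5 had 22.9 CPM, followed by 0.348 CPM, and the highest RECON value was 0.517 CPM. Its difference of REPAIR from RECON was 5.22 (SE 0.97, edgeR adjusted p = 0.0035). Position 36, whose closeness to position 8 is given above, had a read in 10 of 12 CON synovia (0 to 23.3 CPM, median 6.6 CPM). REPAIR 5 had 10.6 CPM and REPAIR 7 had 6.28 CPM, and no other operated library exceeded 0.337 CPM. The difference was 5.00 (SE 0.92, edgeR adjusted p = 0.0035). In cartilage every library held both members, with CON and operated medians of 41.4 and 33.4 CPM for position 8 and of 15.0 and 11.4 CPM for position 36.

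The other 2 had a read in every synovium library. The member at position 4 ran from 1.72 through 29.2 to 65.9 CPM in CON synovium. It ran from 0.115 through 1.73 to 18.5 CPM in ACLT, from 0.108 through 0.485 to 1.91 CPM in RECON, and from 0.349 through 1.33 to 42.5 CPM in REPAIR, where REPAIR 7 was highest and REPAIR 12 followed at 10.4 CPM. The highest RECON library lay below 11 of the 12 CON libraries and above only CON 11. Its difference of REPAIR from RECON was 3.25 (SE 0.62, edgeR adjusted p = 0.0052). At position 15, the member ran from 36.4 through 270.2 to 412 CPM in CON, from 10.1 through 32.8 to 93.7 CPM in ACLT, from 3.31 through 16.3 to 64.5 CPM in RECON and from 8.41 through 35.4 to 448 CPM in REPAIR. REPAIR 7 lay above every CON library and the next REPAIR library was REPAIR 5 at 71.9 CPM. The difference was 1.76 (SE 0.40, edgeR adjusted p = 0.038), and it passed in 34 of 47 fits that left out 1 knee. Besides REPAIR 5 and REPAIR 7, the call was lost without REPAIR 10 or any RECON knee other than RECON 2 and RECON 8. All 4 were singled out after their values were seen.

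**Figure D5:**
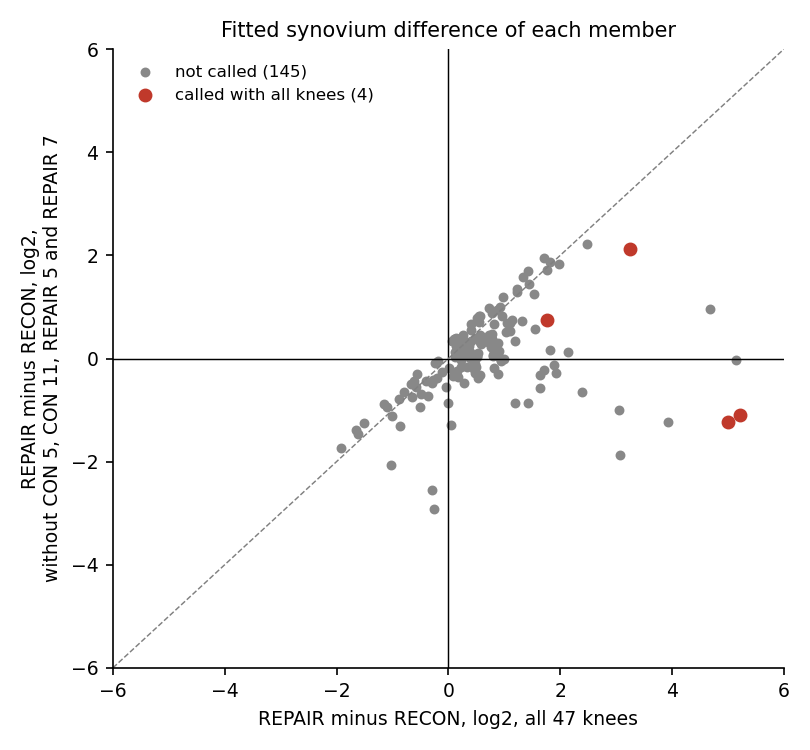
Fitted log2 difference of REPAIR from RECON synovium for each of the 149 members, with all 47 knees (x axis) and without CON 5, CON 11, REPAIR 5 and REPAIR 7 (y axis). The 4 members that passed with all knees are marked in red, the dashed line marks equality, and without the 4 knees the differences of positions 8 and 36 turned negative (-1.10 and -1.23). Leaving out REPAIR 5 and REPAIR 7, which were high in the members, lowers the difference by construction.

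REPAIR against ACLT followed the same libraries. The median fitted difference was 0.30 with 103 members positive, and -0.22 with 54 positive without the 4 knees. Position 36 alone passed as higher in REPAIR (log2 difference 4.89, SE 0.99, edgeR adjusted p = 0.040, 0.00657% of all transcripts passing as higher), and it passed in 31 of 47 fits that left out 1 knee. None passed without the 4 knees. Of the members, 11 had an unadjusted p-value under 0.05 (3.85% of all transcripts). For RECON against ACLT the median difference was -0.39, with 105 of 149 members negative, and it was -0.39 without the 4 knees as well. No member passed by edgeR (0.0263% of all transcripts did), 15 had an unadjusted p-value under 0.05 (4.91% of all transcripts), and DESeq2 called 1 (0.338% of all transcripts). The member at position 4 came closest (log2 difference -2.8, SE 0.62, edgeR adjusted p = 0.052). It passed in 13 of the 47 fits that left out 1 knee, with RECON lower.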

How the data were processed

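The authors quantified each library with Salmon 1.8.0 against Sscrofa11.1 transcripts (submitters' processing notes). They deposited an estimated count and a TPM value per transcript, without normalization between libraries. CPM was the estimated count scaled to the library total. For the tests, the deposited estimated counts were rounded to whole numbers and fitted in R 4.3.3 with edgeR 4.0.16 (TMM, glmQLFit, glmQLFTest, filterByExpr with a minimum count of 10), in 1 fit of 8 groups of tissue and treatment over 94 libraries, with Benjamini-Hochberg adjustment over all 30447 transcripts kept and a threshold of 0.05. All 149 members were kept. A read was a rounded count of at least 1. The operated coefficient was the mean of the 3 treatments. The procedure was tested on simulated data. The members, lists and comparisons were chosen with earlier results of these data known. The text names the 2 members with the lowest d and the 2 with the highest fitted difference in cartilage, since none was called higher there, and cites others by position. Gene lists and cell type markers fixed for a table of gene names were not analysed here.

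Replicates are knees of different animals within a group, and the animals of the replicate block came from the study's list of knees. CON and operated knees share 12 animals, which the main fit ignored. Alternatives were no filterByExpr (transcripts with a count in at least 2 libraries), DESeq2 size factors, DESeq2 1.42.0, all 96 libraries, fits of 1 tissue, RIN as a covariate, the animal as a block, and other settings of the rule. Added after seeing the data were fits without CON 5, CON 11, REPAIR 5 and REPAIR 7, and without each knee in turn.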

Additional observations from a re-analysis of the deposited data

Results flagged for a closer look

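The differences of REPAIR from the other treatments in synovium were flagged because the difference itself was tested and passed. Against RECON, the fitted log2 differences were 3.25 for position 4, 5.22 for position 8, 1.76 for position 15 and 5.00 for position 36. Against ACLT, the difference was 4.89 for position 36. The comparisons share the REPAIR libraries, and REPAIR 5 or REPAIR 7 held the highest REPAIR value of each of these members. None passed without CON 5, CON 11, REPAIR 5 and REPAIR 7, a loss that setting aside these high REPAIR libraries favors by construction. The part of these libraries' other properties in the differences was not tested.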

How the results depend on the processing

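Of the 149 members, 90 remained with ACLT alone as the operated synovia, 98 with means in place of medians and 80 with the median ratio within the 12 animals. The other settings of the rule kept from 104 (RECON alone) to 145 (with ACLT 12), and leaving out each CON knee in turn kept 125 to 132. For operated against CON cartilage, the 3 calls became 1 in a fit of cartilage alone, 0 with RIN as a covariate and 5 by DESeq2, and leaving out each knee in turn gave 1 to 4. The share of all transcripts that DESeq2 called in that comparison is not given here, so the 5 are not read against the 3. With the animal as a replicate block, 0 members passed there (of 92 kept), and the median for operated against CON synovium was -2.01. In the main fit, without the block, that median was -1.44, and leaving out each knee kept it between -1.49 and -1.35. The block fit was not repeated without each knee. For REPAIR against RECON in synovium, the 4 calls became 0 in a fit of synovium alone, 0 with RIN, 0 without the 4 knees (CON 5, CON 11, REPAIR 5 and REPAIR 7) and 9 by DESeq2, and 1 to 5 with each knee left out. For REPAIR against ACLT the 1 call became 0 in a fit of synovium alone, with RIN and without the 4 knees, and 0 to 1 with each knee left out. The 0 calls for RECON against ACLT became 1 without filterByExpr, with DESeq2 size factors, by DESeq2 and without the 4 knees, and 0 to 1 with each knee left out. In cartilage DESeq2 called 1 member for RECON against ACLT, 3 for REPAIR against ACLT and 2 for REPAIR against RECON, where edgeR called 0. Without the 4 knees the median for REPAIR against CON synovium was -1.58, the median for REPAIR against ACLT reversed to -0.22, position 36 reversed to -1.34 against ACLT, and positions 8 and 36 reversed to -1.10 and -1.23 against RECON. REPAIR 5 and REPAIR 7 were set aside because they were high in the members, which lowers REPAIR against ACLT and RECON by construction. The cause of these changes was otherwise not tested, other than the fewer libraries. The block could be fitted only for operated against CON, where animals held both knees, and 42 of 139 members kept passed as lower in synovium against 67 of 149 without it. The other settings run for these comparisons moved no count by over 1.5 times.

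Most members are low in count. Each transcript's value depends on how Salmon divided reads between similar transcripts, and no measure of that was used. The 12 CON knees are from operated animals, and 113 members lack a read in some synovium library, so a median of 0 says only that most libraries held none. The p-values of the main fit set a difference against the spread between knees within groups. For each transcript that spread was estimated over all groups of both tissues together, so a synovium test also drew on cartilage libraries. In the fit of synovium alone, which drew on synovium libraries only, no member passed for REPAIR against RECON or against ACLT. The part of the shared spread in the calls of the main fit was not tested separately.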

Other observations

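In cartilage, 40 of the 149 members had a read in every library and 3 had none in any. The members together took a median of 0.688% of all counts in CON synovium (0.194% to 1.78%), 0.241% in ACLT, 0.170% in RECON and 0.167% in REPAIR synovium. In cartilage these medians were 0.515%, 0.515%, 0.443% and 0.473%. REPAIR 7 held 0.893% and REPAIR 5 held 0.695% in synovium, both above the CON median, and CON 11 held the lowest CON share. The highest CON share was that of CON 6, where the member at position 85 alone held 9456 CPM of the 17750 CPM summed over the members.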
